A study of Mus musculus with 12 samples.

Results

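Chemokines are small secreted proteins that guide the movement of blood cells. The 9 genes described here are the CC chemokines Ccl3, Ccl4, Ccl5, Ccl6 and Ccl9, the CXC chemokines Cxcl2, Cxcl10 and Cxcl16, and the chemokine receptor gene Cxcr4. They were taken by gene symbol from the deposited table of expression values, in which each symbol had 1 gene identifier, and make up 9 of 40481 genes. Hematopoietic stem cells (HSCs) of mice were compared in 4 groups of 3 libraries: bone marrow of 8-week-old mice and fetal liver at embryonic day E14.5, each from wild type (WT) and from ETV6-RUNX1 mice. ETV6-RUNX1, written iE/R in the labels, is a fusion of transcription factors found in childhood B-cell leukemia. All 4 groups, WT included, were cultured for 3 days in an HSC expansion medium with 1 µg/mL doxycycline, a drug commonly used to switch transgenes on. The series asks, by its title, how the developmental stage of the cells shapes what the fusion does. The promoter that drives the fusion and the number of animals behind a library are not given in the sources used here, so the p-values below measure the spread between these libraries, which may be technical.

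Chemokines act through receptors that pass their signal to heterotrimeric G proteins of the inhibitory class. CCL3, CCL4 and CCL5 are inflammatory chemokines made mainly by activated myeloid cells, lymphocytes and NK cells, and CCL6 and CCL9 are myeloid chemokines of rodents that act on CCR1. CXCL2 attracts neutrophils through CXCR2, CXCL10 is an interferon-induced ligand of CXCR3, and CXCL16 is made as a membrane-bound ligand of CXCR6. CXCR4 is the receptor for CXCL12 and is known for holding HSCs in the bone marrow niche. Ccl3 has also been known as a regulator of stem cell proliferation.

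On GRCm38, the CC genes lie in a cluster on chromosome 11: Ccl5 (ENSMUSG00000035042, 83525778 to 83530518), Ccl9 (ENSMUSG00000019122, 83572919 to 83578636), Ccl6 (ENSMUSG00000018927, 83587882 to 83593087), Ccl3 (ENSMUSG00000000982, 83647844 to 83649355) and Ccl4 (ENSMUSG00000018930, 83662584 to 83664683). Cxcl16 (ENSMUSG00000018920) lies elsewhere on chromosome 11, at 70453983 to 70459984. Cxcl2 (ENSMUSG00000058427) and Cxcl10 (ENSMUSG00000034855) lie on chromosome 5, at 90903871 to 90905938 and 92346638 to 92348889. Cxcr4 (ENSMUSG00000045382) lies on chromosome 1, at 128588199 to 128592293. On the opposite strand Art3 overlaps Cxcl10, Zmynd15 overlaps Cxcl16 and E230016K23Rik overlaps Ccl6. The use of strand in counting is not given in the sources used here, so reads of overlapping partners may have been mixed. Listed levels of these partners were at most 3.09, 1.298 and 0.0900 CPM in any library.

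RefSeq promoters (build GRCm38.p6) were found for 6 of the 9 genes, not for Ccl4, Ccl5 and Cxcl16. The 250 bases before the RefSeq start are shown for 4 genes whose levels behaved differently below, with Cxcl10 the gene of the largest rise, Cxcl2 the gene nearest 0 in WT fetal liver, Ccl9 a CC gene and Cxcr4 the receptor. Capitals mark matches to the interferon-stimulated response element half-site pair (GAAA, any 2 bases, GAAA) or to the NF-kB consensus, searched on both strands. The windows are chr5:92348890-92349139 (minus strand) for Cxcl10, chr5:90903649-90903898 (plus strand) for Cxcl2, chr11:83578637-83578886 (minus strand) for Ccl9 and chr1:128592300-128592549 (minus strand) for Cxcr4. The end of the Cxcl2 window lies within the GENCODE gene, which starts earlier than the RefSeq one.
Cxcl10: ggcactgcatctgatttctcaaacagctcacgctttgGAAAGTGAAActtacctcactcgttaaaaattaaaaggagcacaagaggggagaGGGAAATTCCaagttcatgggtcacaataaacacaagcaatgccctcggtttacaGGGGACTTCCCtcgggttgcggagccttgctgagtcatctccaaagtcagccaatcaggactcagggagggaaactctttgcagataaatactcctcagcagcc
Cxcl2: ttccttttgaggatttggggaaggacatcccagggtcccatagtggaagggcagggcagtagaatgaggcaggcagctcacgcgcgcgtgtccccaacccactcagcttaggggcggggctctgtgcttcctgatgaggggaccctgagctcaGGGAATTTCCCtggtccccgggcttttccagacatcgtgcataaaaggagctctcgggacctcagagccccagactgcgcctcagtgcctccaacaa
Ccl9: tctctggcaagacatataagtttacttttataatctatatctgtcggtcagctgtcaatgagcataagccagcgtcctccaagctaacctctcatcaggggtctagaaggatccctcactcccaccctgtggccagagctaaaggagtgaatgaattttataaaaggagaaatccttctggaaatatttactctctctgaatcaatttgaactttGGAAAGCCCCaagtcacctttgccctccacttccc
Cxcr4: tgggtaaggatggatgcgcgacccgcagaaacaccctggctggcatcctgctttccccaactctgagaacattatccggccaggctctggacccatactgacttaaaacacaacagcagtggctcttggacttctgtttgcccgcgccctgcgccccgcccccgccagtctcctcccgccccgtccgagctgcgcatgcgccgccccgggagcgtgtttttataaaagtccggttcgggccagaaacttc
The half-site pair was present in 1 of the 6 promoters, that of Cxcl10, at 213 to 204 bases before the start, and in 978 of 32851 RefSeq promoters of the same length (2.98%). The NF-kB consensus was present in 3 of the 6 promoters, against 2382 of 32851 (7.25%). In Cxcl10 it lay at 159 to 150 bases and, in overlapping matches on both strands, at 104 to 94 bases before the start. In Cxcl2 overlapping matches on both strands covered 97 to 87 bases before the start, and in Ccl9 there was 1 match on the reverse strand at 35 to 26 bases. No match lay in the windows of Cxcr4, Ccl6 and Ccl3. These matches are letters in a window and were not measured as bound sites.

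The values are in CPM, a gene's reads scaled to the total of its library. Totals ran from 32.3 to 64.5 M reads. A floor of 3 reads, which equals 0.0465 to 0.0928 CPM, was used as the limit of detection. Floors and counting intervals cover counting error only, because PCR copies of 1 molecule are counted as separate reads. Runx1, which the fusion contains, ranged from 143 to 194 CPM in ETV6-RUNX1 and from 86.7 to 105 CPM in WT bone marrow, and from 218 to 244 against 110 to 136 CPM in fetal liver. Xist was 51.7 to 89.3 CPM in the fetal liver libraries and 0.175 to 1.27 CPM in the bone marrow libraries, so that source and Xist level cannot be told apart. The Y-linked Ddx3y was 69.1 to 75.2 CPM in ETV6-RUNX1 and 23.5 to 41.5 CPM in WT fetal liver. Mitochondrial reads made up 0.921% to 1.10% of ETV6-RUNX1 fetal liver libraries and 1.34% to 1.84% of the other libraries.

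HSC markers were present in all groups. The summed level of 10 HSC and progenitor markers, among them Kit, Procr, Mecom and Hlf, was 2060 to 2866 CPM in WT and 3003 to 3302 CPM in ETV6-RUNX1 bone marrow, and 1851 to 2230 against 4136 to 4257 CPM in fetal liver. Of the 10, 8 rose and 1 fell in fetal liver, against 24.8% of all genes called higher and 43.1% in either direction. In bone marrow 5 rose and 1 fell, against 14.4% of all genes called higher and 19.4% in either direction. The gene that fell was Cd48, which HSCs carry less of than later progenitors, with log2 fold changes of -3.04 in fetal liver (limma adjusted p 8.8e-08) and -1.98 in bone marrow (8.9e-05). Kit had no call in either source (0.35, limma adjusted p 0.582, and -0.0050, 0.994). Since the samples are bulk RNA, fewer cells of a type and less RNA per cell cannot be told apart. Monocyte and macrophage markers (11 genes) summed to 260 to 350 CPM in WT bone marrow, 329 to 486 in ETV6-RUNX1 bone marrow, 252 to 315 in WT fetal liver and 748 to 946 in ETV6-RUNX1 fetal liver. Of the 6 of them that were tested, 5 rose in fetal liver (limma adjusted p under 0.05) and 1 in bone marrow, against 24.8% and 14.4% of all genes. Adgre1 was at most 0.190 CPM in WT, and Csf1r averaged 0.764 CPM in WT bone marrow and 0.824 CPM in WT fetal liver. Both passed the filter only with ETV6-RUNX1 libraries, which favoured a higher level with the fusion. The largest part of the monocyte and macrophage sum was Lyz2, with a mean of 686 CPM in ETV6-RUNX1 fetal liver. The macrophage genes C1qa, C1qb, C1qc and Marco were at most 0.495 CPM in any library. The monocyte receptors Csf1r and Fcgr1 were 7.13 to 13.6 and 12.8 to 27.7 CPM in ETV6-RUNX1 fetal liver, and at most 1.70 and 2.87 CPM elsewhere. Dendritic markers (5 genes) summed to 15.1 to 16.9 CPM in ETV6-RUNX1 fetal liver and to at most 7.23 CPM in the other libraries. Neutrophil lineage markers (10 genes) were lower with the fusion, 37.5 to 55.3 against 238 to 311 CPM in fetal liver and 103 to 128 against 155 to 366 CPM in bone marrow. Of the 3 tested, 2 fell in each source, against 43.1% (fetal liver) and 19.4% (bone marrow) of all genes called in either direction. Megakaryocyte markers (4 genes) were 1320 to 1670 CPM in ETV6-RUNX1 and 748 to 1269 CPM in WT fetal liver, and 169 to 493 against 342 to 649 CPM in bone marrow. Most of this sum was Itga2b, and 3 of the 4 rose in fetal liver, against 24.8% of all genes. The platelet gene Gp9, however, fell there (-0.84, limma adjusted p 0.00911) and in bone marrow (-2.51, 2.8e-05). Mast cell and basophil markers (7 genes) were at most 13.6 CPM, and Mcpt4 and Prss34 were at 0. T and NK markers (6 genes, with Cd3e and Gzma at 0) were at most 2.13 CPM, and B markers (4 genes) at most 1.04 CPM. Endothelial, stromal and hepatocyte markers (7 genes) were 27.3 to 41.2 CPM over all libraries. The part of these other cell types in the results below was not tested.

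The first comparison asked what the fusion does to chemokine RNA in fetal liver HSCs. All 9 genes were higher in every ETV6-RUNX1 library than in any WT library, a pattern found for 32.3% of the 14271 genes tested. All 9 passed the test across all genes (limma on log2(CPM + 1), Benjamini-Hochberg adjusted p under 0.05), against 24.8% of all genes called higher and 43.1% called in either direction. Among them, Ccl6 was tested only because of its level in the ETV6-RUNX1 fetal liver libraries, so that its place in these counts was fixed by the filter. Ccl3, Cxcl2 and Cxcl16 reached 1 CPM in fewer than 3 WT libraries, so the filter favoured a higher level with the fusion for them too. With edgeR's quasi-likelihood test 22.1% of all genes were called higher, and with DESeq2 24.3%. The median log2 fold change of the 9 genes was 3.71, and that of all genes tested was 0.08. With 3 libraries against 3, an exact permutation test of a single gene cannot go below p = 0.1, which each of the 9 genes reached.

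Among the inflammatory CC chemokines, Ccl5 was 155, 111 and 264 CPM in ETV6-RUNX1 fetal liver libraries 1 to 3 and 2.23, 1.05 and 2.45 CPM in WT. Every ETV6-RUNX1 library was thus far above every WT library, and the means, 177 ± 79.0 and 1.91 ± 0.750 CPM (SD, n = 3), had a ratio of 92.5. The limma log2 fold change was 5.88 ± 0.37 (SE), adjusted p 3.7e-08. Ccl3 was almost silent in WT fetal liver, at 0.670, 0.167 and 0.372 CPM, and was 32.0, 22.0 and 26.5 CPM with the fusion. It rose by 4.31 ± 0.32 on the log2 scale (limma adjusted p 1.5e-07), with a ratio of means of 66.6. Ccl4 differed from its neighbour in that WT fetal liver cells already expressed it, at 7.52, 7.35 and 9.88 CPM. With the fusion Ccl4 was 116, 93.1 and 156 CPM, and it rose by 3.71 ± 0.37 (limma adjusted p 3.4e-06), a ratio of 14.7.

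The myeloid CC chemokines differed by level. Ccl9 was 144, 91.2 and 153 CPM in ETV6-RUNX1 and 3.59, 2.39 and 6.17 CPM in WT fetal liver, and rose by 4.72 ± 0.34 (limma adjusted p 1e-07), a ratio of 31.9. Ccl6, its neighbour in the cluster, was 2.04, 1.85 and 2.46 CPM with the fusion and 0.0432, 0.134 and 0 CPM in WT, where the 3 libraries held 10 reads in all. Ccl6 and Cxcl16 were the lowest ligands of ETV6-RUNX1 fetal liver. Its rise on the log2(CPM + 1) scale was 1.55 ± 0.18 (limma adjusted p 1.1e-05), a scale that understates changes of low genes. The ratio of pooled reads, scaled to depth, was 35.2, with a counting interval of 18.9 to 74.2 (95%). Ccl6 passed the filter for testing only through the 3 ETV6-RUNX1 fetal liver libraries, the group in which it is high, so a difference was built into its selection.

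Of the CXC chemokines, Cxcl10 had the largest rise of the 9 genes. It was 180.5, 52.6 and 302 CPM in ETV6-RUNX1 and 0.346, 0.418 and 0.310 CPM in WT fetal liver. The ETV6-RUNX1 libraries did not overlap WT but differed among themselves by several fold, and the ratio of means was 498. The limma log2 fold change was 6.72 ± 0.69, adjusted p 4.4e-06. Cxcl2 was 7.90, 7.11 and 25.9 CPM with the fusion, while the WT libraries held 4, 1 and 3 reads, or 0.0865, 0.0167 and 0.0465 CPM. Cxcl2 thus went from near the floor to a clear level, with a pooled ratio of 255 (counting interval 129 to 592) and a log2 fold change of 3.57 ± 0.38 (limma adjusted p 5.7e-06). Cxcl16 was 1.79, 1.17 and 3.45 CPM against 0.151, 0.351 and 0.388 CPM, and rose by 1.21 ± 0.29 (limma adjusted p 0.00362), a ratio of 7.19. It passed the filter only with the ETV6-RUNX1 libraries, so a higher level with the fusion was favoured by its selection.

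Cxcr4, the receptor, was expressed in all groups and changed least. It was 12.1, 12.5 and 14.8 CPM in ETV6-RUNX1 and 6.66, 10.5 and 7.15 CPM in WT fetal liver. The groups did not overlap, but the highest WT library lay close to the lowest ETV6-RUNX1 library, and the ratio of means was 1.62. The log2 fold change of 0.65 ± 0.24 passed the threshold narrowly (limma adjusted p 0.0430). This call was lost with edgeR's quasi-likelihood test (adjusted p 0.0567), with quantile normalization (0.170) and with all genes with reads (0.103). It was also lost without each ETV6-RUNX1 fetal liver library in turn, without WT fetal liver replicates 1 or 3 and without WT bone marrow replicate 2 (limma adjusted p 0.0520 to 0.136), and kept with DESeq2 (0.0321).

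**Figure D1:**
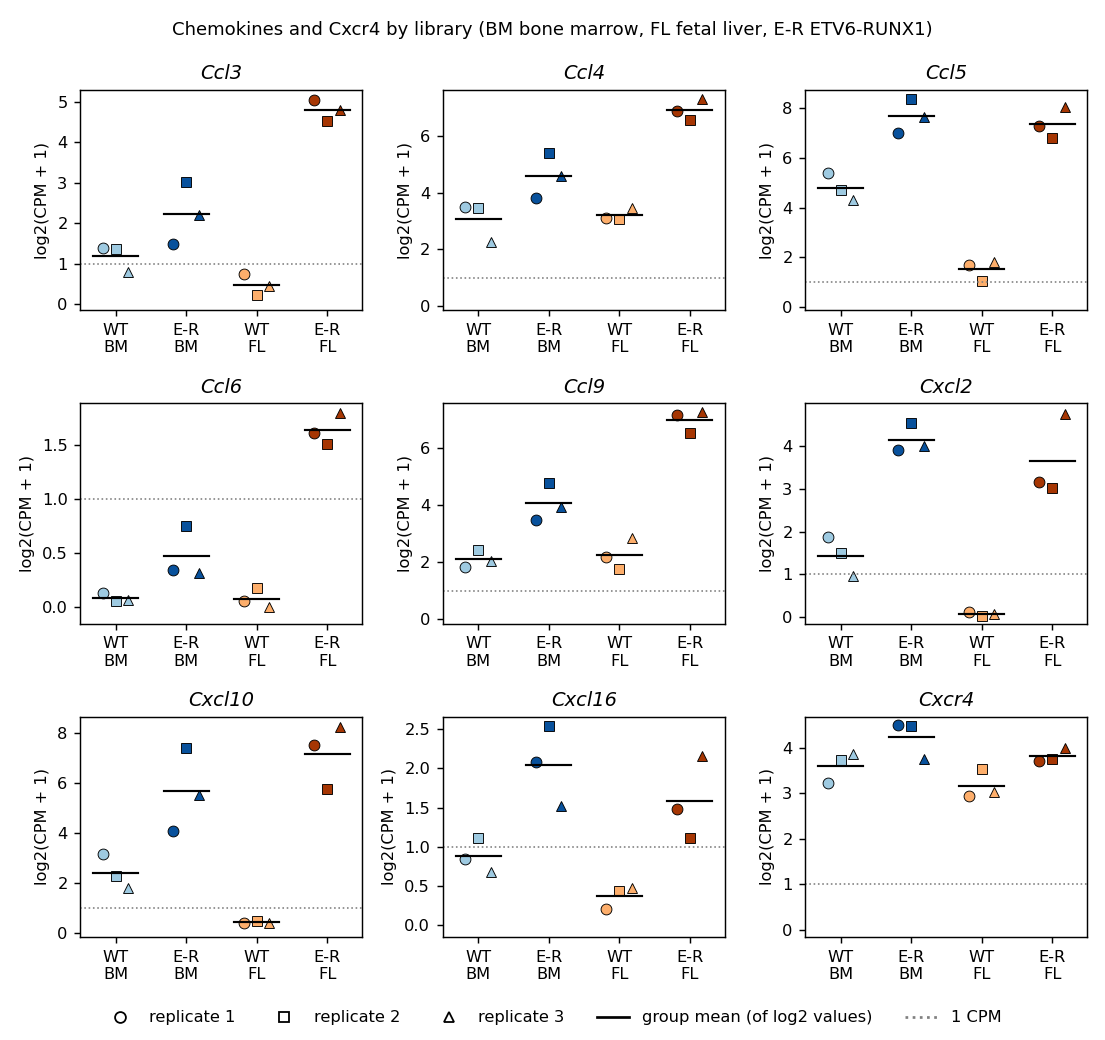
Levels of the 9 genes in each of the 12 libraries as log2(CPM + 1), with a panel per gene, a column per group, a symbol per replicate number, a bar at the group mean of the log2 values and a dotted line at 1 CPM. In every panel the 3 ETV6-RUNX1 fetal liver libraries lie above the 3 WT fetal liver libraries, and the Ccl6 panel lies below 1 CPM in all but the ETV6-RUNX1 fetal liver libraries.

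The second comparison asked the same of adult bone marrow HSCs. The ligands were again higher with the fusion: 8 of the 9 genes did not overlap between genotypes and lay above WT, against 23.6% of all genes tested. The test called 7 of the 9 higher (limma adjusted p under 0.05), against 14.4% of all genes called higher and 19.4% in either direction (9.7% higher with edgeR and 12.0% with DESeq2). The median log2 fold change was 1.53 over the 9 genes and 0.13 over all genes tested. Both genes without a call, Ccl6 and Cxcr4, had fold changes above 0. Ccl3, Cxcl2 and Cxcl16 passed the filter only with ETV6-RUNX1 libraries, which favoured a higher level with the fusion. Leaving out ETV6-RUNX1 bone marrow replicate 2, the library highest for every ligand, brought the 7 calls to 4.

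Ccl5 was 129, 330 and 197.9 CPM in ETV6-RUNX1 bone marrow and 41.1, 24.9 and 18.8 CPM in WT. The lowest ETV6-RUNX1 library thus stood above every WT library, and Ccl5 rose by 2.88 ± 0.37 (limma adjusted p 0.000301), with means of 219 ± 102 and 28.2 ± 11.5 CPM and a ratio of 7.76. Ccl4 was 13.0, 41.1 and 22.9 CPM against 10.1, 9.95 and 3.84 CPM, and rose by 1.53 ± 0.37 (limma adjusted p 0.0122), a ratio of 3.22. For Ccl4 the lowest ETV6-RUNX1 library was close to the highest WT library. The call of Ccl4 was lost without ETV6-RUNX1 bone marrow replicate 2 (limma adjusted p 0.0594), with all genes with reads (0.0571) and with only the 6 libraries compared (0.0507). Ccl3 was 1.81, 7.11 and 3.59 CPM against 1.64, 1.58 and 0.747 CPM, a ratio of 3.16, and it too had its lowest ETV6-RUNX1 library just above WT. Its rise of 1.05 ± 0.32 had a limma adjusted p of 0.0349 and failed under 9 of 21 alternatives, with the highest adjusted p, 0.148, without ETV6-RUNX1 bone marrow replicate 2. Without that library the log2 fold change of Ccl3 was 0.65.

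Ccl9 was 10.1, 26.5 and 14.45 CPM with the fusion and 2.59, 4.36 and 3.14 CPM in WT bone marrow. It rose by 1.96 ± 0.34 (limma adjusted p 0.00175), with a ratio of means of 5.06. Ccl6 stayed below 1 CPM in all bone marrow libraries, at 0.270, 0.680 and 0.248 CPM with the fusion and 0.0952, 0.0390 and 0.0498 CPM in WT. The genotypes did not overlap for Ccl6, with 40 reads against 9, and the pooled ratio was 6.29 (counting interval 3.01 to 14.8). Its log2 fold change of 0.39 ± 0.18 did not pass (limma adjusted p 0.137), whereas it passed with a pseudocount of 0.1 (limma adjusted p 0.0429), with edgeR (0.0432) and with DESeq2 (0.0198).

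Cxcl10 was 15.9, 166 and 45.1 CPM in ETV6-RUNX1 bone marrow and 8.00, 3.93 and 2.47 CPM in WT. Replicate 2 set most of the ETV6-RUNX1 mean, 75.8 ± 79.9 CPM, and the ratio of means was 15.8. The rise of Cxcl10 was 3.24 ± 0.69 (limma adjusted p 0.00616), and the call was kept under all 21 alternatives (adjusted p up to 0.0406). Cxcl2 was 14.0, 22.0 and 14.9 CPM against 2.65, 1.81 and 0.947 CPM. Its libraries were closer to each other, and it rose by 2.70 ± 0.38 (limma adjusted p 0.000485), a ratio of 9.42. Cxcl16 was 3.24, 4.82 and 1.86 CPM against 0.7999, 1.17 and 0.598 CPM, and rose by 1.17 ± 0.29 (limma adjusted p 0.0126), a ratio of 3.87. Its call was lost without ETV6-RUNX1 bone marrow replicate 2 (limma adjusted p 0.0586) and with all genes with reads (0.0512).

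Cxcr4 was 21.6, 21.1 and 12.4 CPM in ETV6-RUNX1 bone marrow and 8.36, 12.2 and 13.4 CPM in WT. ETV6-RUNX1 replicate 3 lay within the WT range, so the genotypes overlapped (exact permutation p 0.2, two-sided). The ratio of means, 1.62, was the same as in fetal liver to 3 digits, and the log2 fold change of 0.64 ± 0.24 (95% interval 0.11 to 1.16) did not pass (limma adjusted p 0.0817). Without ETV6-RUNX1 replicate 3 it was 0.88 and passed (limma adjusted p 0.0193).

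The third comparison, the interaction, asked whether the fusion's effect differed between the sources. For 6 of the 9 genes the effect was larger in fetal liver (limma adjusted p under 0.05), against 5.56% of all genes called in that direction and 9.19% in either direction. With edgeR 5.69% and with DESeq2 8.18% of all genes were called in that direction. The differences between effects on the log2 scale were 3.26 ± 0.45 for Ccl3 (limma adjusted p 0.000584), 2.76 ± 0.47 for Ccl9 (0.00267) and 2.995 ± 0.52 for Ccl5 (0.00299). They were 1.17 ± 0.25 for Ccl6 (limma adjusted p 0.0101), 2.18 ± 0.52 for Ccl4 (0.0195) and 3.48 ± 0.98 for Cxcl10 (0.0398). The calls were thus those of the 5 CC chemokines and of 1 of the 3 CXC chemokines. For Ccl6, which passed the filter through the ETV6-RUNX1 fetal liver libraries alone, a higher level in that group was built into its selection. The 6 genes differed in how they came to the larger effect. Ccl5 and Cxcl10 started lower in WT fetal liver than in WT bone marrow, at 1.91 against 28.2 and 0.358 against 4.80 CPM on average. Ccl4 and Ccl9 started at overlapping levels, 8.25 against 7.97 and 4.05 against 3.36 CPM, and reached higher levels with the fusion in fetal liver, 121 against 25.6 and 129 against 17.0 CPM.

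Not all of these calls held under other processing. For Ccl3, Ccl5 and Ccl9 the interaction passed under all 20 alternatives. The interaction of Cxcl10 passed under 10 of 20 (adjusted p 0.00123 to 0.155), and it was lost without any 1 of 8 libraries. Those were ETV6-RUNX1 replicates 1 and 3 of both sources, WT bone marrow replicate 2 and the 3 WT fetal liver libraries (limma adjusted p 0.0627 to 0.0909). Ccl4 lost its call with all genes with reads (limma adjusted p 0.0882), without WT bone marrow replicate 2 (0.0564) and without WT fetal liver replicate 2 (0.0508). Ccl6, with 9 and 10 reads in the WT groups, lost it with a pseudocount of 0.1 (limma adjusted p 0.0535), with edgeR (0.186) and with DESeq2 (0.141).

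The other 3 genes had no interaction call. For Cxcl2 the difference was 0.87 ± 0.53 (95% interval -0.27 to 2.01, limma adjusted p 0.315) on log2(CPM + 1). This result depended on the scale, since the WT fetal liver libraries held 1 to 4 reads of Cxcl2. The difference was 3.04 with a pseudocount of 0.1 (limma adjusted p 0.0137), 4.93 with edgeR (adjusted p 0.00454) and 5.002 with DESeq2 (adjusted p 1.4e-07). For Cxcl16 it was 0.05 ± 0.40 (interval -0.82 to 0.91, limma adjusted p 0.961). This value too depended on the scale, as 5 of the 6 WT libraries were below 1 CPM. It was 0.64 with a pseudocount of 0.1 (limma adjusted p 0.574), 0.91 with edgeR (adjusted p 0.456) and 0.93 with DESeq2 (adjusted p 0.455). For Cxcr4 the difference was 0.02 ± 0.34 (interval -0.72 to 0.76, limma adjusted p 0.984). On log2(CPM + 1) the sign of both changed when single libraries were left out. The interval for Cxcr4 leaves room for a difference between sources larger than the effect within either.

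**Figure D2:**
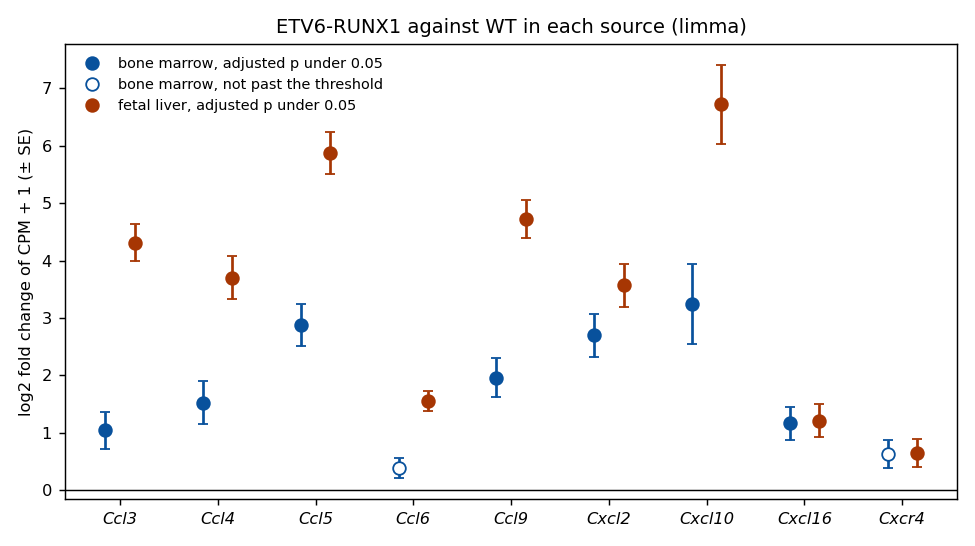
Log2 fold change of CPM + 1 between ETV6-RUNX1 and WT for each of the 9 genes, with bone marrow in blue and fetal liver in orange, bars for the SE and open symbols for values that did not pass an adjusted p of 0.05. The 5 CC chemokines and Cxcl10 stand higher in fetal liver, whereas the Cxcl16 and Cxcr4 points of both sources lie side by side. For Cxcl16, which was mostly below 1 CPM in WT, this depends on the scale.

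The remaining comparisons set fetal liver against bone marrow within a genotype. They share their libraries with the comparisons above and are given as values of their own, and they carry the Xist difference between the sources, which cannot be told apart from the source. In WT cells, 5 ligands (Ccl3, Ccl5, Cxcl2, Cxcl10 and Cxcl16) were lower in every fetal liver library than in any bone marrow library, against 18.9% of all genes tested. The test called 2 of the 9 lower in fetal liver, against 7.77% of all genes called lower and 11.1% in either direction (6.85% lower with edgeR and 8.96% with DESeq2). Ccl5 was lower by 14.8-fold (log2 fold change -3.29 ± 0.37, limma adjusted p 5.1e-05), a call kept under all 21 alternatives. Cxcl2 was lower by 36.1-fold on 8 reads in WT fetal liver (-1.37 ± 0.38, limma adjusted p 0.0295), and lost its call under 7 of 21 alternatives, with a highest adjusted p of 0.138. For Cxcl10 the log2 fold change was -1.98 ± 0.69 (limma adjusted p 0.0842), and it passed under 6 of 21 alternatives. For Ccl4 and Ccl9 the libraries of the WT groups overlapped (exact permutation p 1 and 0.7).

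In ETV6-RUNX1 cells 4 CC chemokines were higher in fetal liver. Ccl3, Ccl4, Ccl6 and Ccl9 were higher in every fetal liver library than in any bone marrow library, against 14.4% of all genes tested. The same 4 were called higher, against 10.4% of all genes called higher and 28.6% in either direction. For Ccl6, below 1 CPM in all bone marrow libraries, a higher level in ETV6-RUNX1 fetal liver was fixed by the filter. Their log2 fold changes were 2.55 ± 0.32 for Ccl3 (limma adjusted p 4.6e-05), 2.31 ± 0.37 for Ccl4 (0.000364), 1.16 ± 0.18 for Ccl6 (0.000225) and 2.92 ± 0.34 for Ccl9 (2e-05), and each call was kept under all alternatives that gave a value. Ccl5, by contrast, was 219 CPM in bone marrow and 177 CPM in fetal liver on average, with overlapping libraries (-0.30 ± 0.37, limma adjusted p 0.587). Cxcl2, Cxcl16 and Cxcr4 also overlapped between the sources, with log2 fold changes of -0.50, -0.46 and -0.42 (limma adjusted p 0.346, 0.244 and 0.215). Cxcl10 overlapped as well, at 1.499 ± 0.69 (limma adjusted p 0.120), and passed without ETV6-RUNX1 bone marrow replicate 2 (2.36, adjusted p 0.0124) and without ETV6-RUNX1 fetal liver replicate 2 (2.21, adjusted p 0.0336).

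Ordered by mean level, Ccl3 ran from WT fetal liver over WT bone marrow and ETV6-RUNX1 bone marrow to ETV6-RUNX1 fetal liver, with no overlap between neighbours. For Ccl4, Ccl6 and Ccl9 only the 2 WT groups overlapped. For Ccl5 and Cxcl2 the order was WT fetal liver, WT bone marrow, ETV6-RUNX1 fetal liver and ETV6-RUNX1 bone marrow, and only the ETV6-RUNX1 groups overlapped. For Cxcl10 the ETV6-RUNX1 groups overlapped too, with fetal liver higher. Cxcl16 in ETV6-RUNX1 fetal liver overlapped both bone marrow groups, and for Cxcr4 all neighbouring groups overlapped.

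Values below 1 CPM were found for 5 of the 9 genes. Ccl6 lay below 1 CPM in 9 of 12 libraries, all except ETV6-RUNX1 fetal liver. Cxcl16 lay below it in 5 libraries, the 3 of WT fetal liver and 2 of WT bone marrow. Ccl3 and Cxcl2 did so in 4 libraries each, WT fetal liver and WT bone marrow replicate 3, and Cxcl10 in the 3 WT fetal liver libraries. Ccl4, Ccl5, Ccl9 and Cxcr4 were above 1 CPM in every library. All 9 genes passed the filter of at least 1 CPM in at least 3 libraries. Ccl3, Ccl6, Cxcl2 and Cxcl16 did so only with ETV6-RUNX1 libraries.

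Levels were compared between genes after division by exon length in kb. In ETV6-RUNX1 fetal liver Ccl5 and Ccl4 led, both with a mean of 184 CPM per kb (SD 82.3 and 48.0), followed by Cxcl10 (79.1 ± 55.3), Ccl9 (42.5 ± 10.9) and Ccl3 (35.1 ± 6.53). In ETV6-RUNX1 bone marrow Ccl5 led alone, at 228 ± 106 CPM per kb, with Ccl4 at 38.9 ± 21.5 and Cxcl10 at 33.7 ± 35.5. WT bone marrow had the same leading pair at lower levels, Ccl5 at 29.4 ± 12.0 and Ccl4 at 12.1 ± 5.43 CPM per kb. In WT fetal liver Ccl4 led at 12.5 ± 2.14 CPM per kb, and Cxcr4 came next at 4.48 ± 1.15. Cxcr4 RNA per kb was thus above that of every ligand but Ccl4 in WT fetal liver, and below that of 5 ligands in ETV6-RUNX1 fetal liver.

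Ccl3 and Ccl4, neighbours on chromosome 11, kept a like ratio in 3 of the groups. Ccl4 over Ccl3 per kb was 5.96 to 7.32 in WT bone marrow, 6.70 to 8.35 in ETV6-RUNX1 bone marrow and 4.19 to 6.80 in ETV6-RUNX1 fetal liver. In WT fetal liver it was 13.0 to 51.0, where Ccl3 rested on 10 to 31 reads per library.

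The 8 ligands summed to 67.0, 47.7 and 30.5 CPM in WT bone marrow, 188, 599 and 301 CPM in ETV6-RUNX1 bone marrow, 14.6, 11.9 and 19.6 CPM in WT fetal liver and 639, 379.7 and 933 CPM in ETV6-RUNX1 fetal liver. The genotypes did not overlap in either source. The makeup of the sum differed by source. Ccl5 held 58.3% ± 5.34 (SD, n = 3) of it in WT and 63.3% ± 7.21 in ETV6-RUNX1 bone marrow, but 12.2% ± 3.18 and 27.3% ± 2.61 in WT and ETV6-RUNX1 fetal liver. Ccl4 held 54.5% ± 6.34 in WT fetal liver and 19.8% ± 4.18 in ETV6-RUNX1 fetal liver, where Cxcl10 (24.8% ± 9.72) and Ccl9 (20.97% ± 4.04) held similar parts. In the WT fetal liver sum Cxcl10 held 2.49% ± 0.976 and Ccl9 25.4% ± 5.71. These shares describe the table, since CPM of longer genes weigh more.

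**Figure D3:**
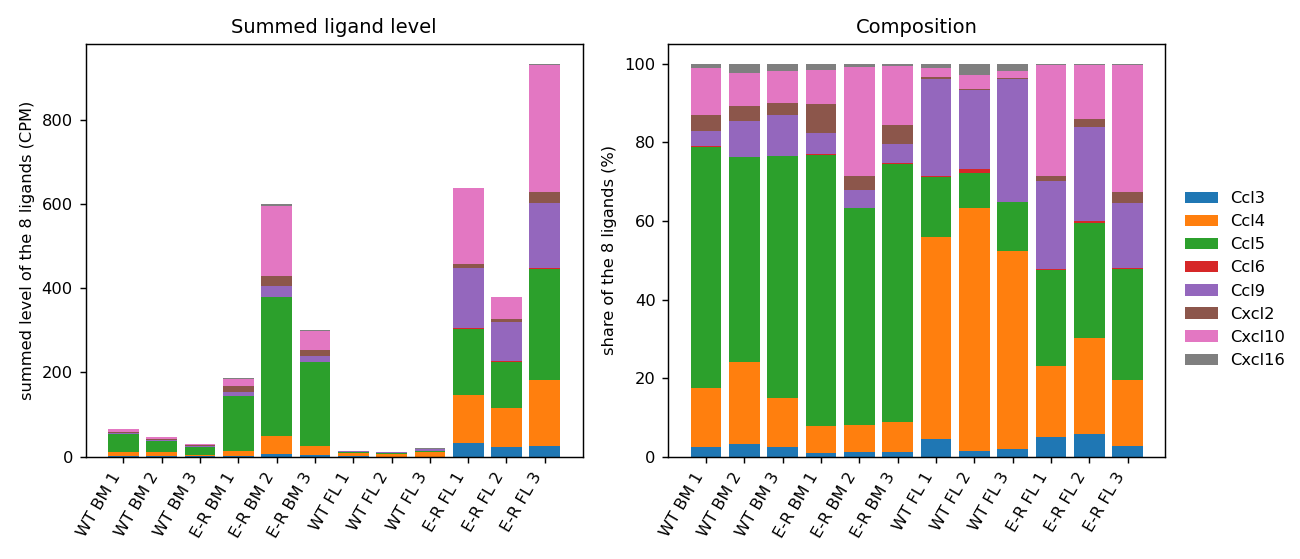
Summed CPM of the 8 ligands in each library (left, bars from 0) and the share of each ligand in that sum in percent (right), with libraries named by genotype (WT, or E-R for ETV6-RUNX1), source (BM, bone marrow, or FL, fetal liver) and replicate. The sum runs from 11.9 to 933 CPM, and the Ccl5 share is the largest in every bone marrow library.

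In 3 of the 4 groups, 1 library stood highest or lowest for at least 6 of 8 ligands. ETV6-RUNX1 bone marrow replicate 2 was the highest of its group for 8 of 8 ligands, and ETV6-RUNX1 fetal liver replicate 2 was the lowest of its group for 8 of 8. ETV6-RUNX1 fetal liver replicate 3 was the highest for 7 of 8, and WT bone marrow replicate 3 the lowest for 6 of 8. In WT fetal liver no library was highest for more than 4 ligands, and replicate 2 was the lowest for 5 of 8. Cxcr4 was highest in ETV6-RUNX1 fetal liver replicate 3, as were 7 ligands, but also in WT bone marrow replicate 3, the lowest library for 6 ligands. In ETV6-RUNX1 bone marrow it was highest in replicate 1, where 6 of 8 ligands were lowest, and in WT fetal liver in replicate 2. As a description over 12 libraries, deviations from the group means correlated between ligands with Pearson's r of 0.37 to 0.88 (28 pairs, median 0.68), and between Cxcr4 and the 8 ligands with r of -0.30 to 0.56 (median -0.03). These genes share their libraries and library totals, so the correlations are not independent of each other.

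The genes whose levels were most like each member over the 12 libraries were found by Pearson's r of log2(CPM + 1) among tested, named genes averaging 5 CPM or more. All such values rest mainly on the difference between the 4 groups. They were Casp4 (0.987), Rnf114 and Sat1 for Ccl3, Ms4a4c (0.986), Ccl9 and Igsf6 for Ccl4, and Serpina3g (0.994), Gbp8 and Tap1 for Ccl5. For Ccl6 they were Ctla2b (0.987), Mlip and Ctla2a, and for Ccl9 Clec7a (0.991), Ms4a4c and F11r. Cxcl10 was nearest to Irf1 (0.989), Ifi203-ps and Il27, Cxcl2 to Nfkbia (0.984), Wdtc1 and Bcl10, and Cxcl16 to Relb (0.977), Mettl27 and Nfkbia. Irf1 encodes an interferon-induced transcription factor, Nfkbia an inhibitor of NF-kB and Relb an NF-kB subunit. Cxcr4 was nearest to Zfp654 (0.974), Hnrnph3 (0.960) and Trip11 (0.958), none of which was among the nearest genes of a ligand.

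Other genes of the pathway were examined by list. Of 30 other chemokine ligands, 14 passed the filter and 4 had no reads. In fetal liver 6 of the 14 rose with the fusion (Ccl22, Cxcl1, Cxcl3, Cxcl5, Cxcl11 and Cx3cl1), 1 fell (Ccl25, -0.65 ± 0.24, limma adjusted p 0.0404) and 7 had no call, against 24.8% of all genes called higher and 43.1% in either direction. No gene of the list was called lower with all genes with reads, with the replicate block, without any 1 of the WT fetal liver libraries, without ETV6-RUNX1 fetal liver replicates 2 or 3 or without WT bone marrow replicate 3, so the call of Ccl25 did not hold there. In bone marrow 7 rose (Ccl17, Ccl22, Cxcl1, Cxcl3, Cxcl9, Cxcl11 and Cx3cl1), against 14.4% of all genes called higher. None was called lower there, but without ETV6-RUNX1 bone marrow replicate 2, 5 were called higher and 2 lower. The list's median log2 fold change was 0.95 in fetal liver and 1.12 in bone marrow. No WT library reached 1 CPM for Ccl22, Cxcl1, Cxcl9 or Cxcl11 (at most 0.526 CPM). These genes passed the filter only through ETV6-RUNX1 libraries, so a higher level with the fusion was built into their part of the counts. Cxcl3 was at most 0.876 CPM in WT bone marrow and 0.853 to 2.19 CPM in WT fetal liver. It too passed only with ETV6-RUNX1 libraries, so its selection favoured a higher level with the fusion in either source. Ccl22, a CCR4 ligand known from dendritic cells and macrophages, went from 0 to 0.109 CPM in WT to 8.76 to 35.6 CPM in ETV6-RUNX1 fetal liver (4.42 ± 0.72, limma adjusted p 0.000260). In bone marrow it was 1.38 to 36.6 CPM against 0 to 0.190 CPM (3.38 ± 0.72, limma adjusted p 0.00631). Ccl17, which shares that receptor, was 3.88 ± 1.47 against 0.240 ± 0.142 CPM in bone marrow, a rise of 1.93 ± 0.27 (limma adjusted p 0.000531). In fetal liver Ccl17 was 0.670 ± 0.620 against 0.894 ± 0.1796 CPM with no call, and it had an interaction call (-2.18, limma adjusted p 0.00330). Ccl17 passed the filter only through ETV6-RUNX1 bone marrow (2.30 to 5.20 CPM). A higher level in that group, on which its rise and its interaction call rest, was thus built into its selection. It was the 1 ligand of this list called with all 12 libraries, against 9.19% of all genes. The count came to 4 without ETV6-RUNX1 bone marrow replicate 2, to 2 without replicates 1 or 3 of that group or without ETV6-RUNX1 fetal liver replicate 2, and to 3 with all genes with reads. Cxcl11, a CXCR3 ligand like Cxcl10, rose by 2.70 ± 0.44 in fetal liver (limma adjusted p 0.000225) and 1.49 ± 0.44 in bone marrow (0.0287). Cxcl9, the third ligand of that receptor, rose in bone marrow (1.83 ± 0.37, limma adjusted p 0.00508) and was 0.520 ± 0.454 against 0.0107 ± 0.00933 CPM in fetal liver with no call (0.54 ± 0.37, adjusted p 0.265). Cxcl9 reached 1 CPM only in ETV6-RUNX1 bone marrow (1.27 to 7.70 CPM), so its higher level there was fixed by the filter.

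Of 22 other chemokine receptor genes, 6 passed the filter. In fetal liver 4 rose (Ccrl2, Cxcr5, Xcr1 and Ackr1), 1 fell (Cxcr3) and 1 had no call, against 24.8% of all genes called higher and 43.1% in either direction. Xcr1 reached 1 CPM only in ETV6-RUNX1 fetal liver (1.005 CPM or more), so its rise was fixed by the filter. Cxcr5 passed the filter only with ETV6-RUNX1 libraries (1.37 to 2.62 CPM, against at most 1.07 CPM in WT). A higher level of Cxcr5 with the fusion was thus favoured by its selection in either source. In bone marrow 1 rose (Cxcr5), 1 fell (Cxcr3) and 4 had no call, against 19.4% of all genes called in either direction. Neither bone marrow call held without ETV6-RUNX1 bone marrow replicates 1 or 2 or WT bone marrow replicates 1 or 2, and no receptor was called higher with edgeR or DESeq2. Without WT bone marrow replicate 3, 1 was called higher and none lower. Ccrl2, an atypical receptor that binds chemerin, was 26.1 to 66.5 CPM in ETV6-RUNX1 and 9.12 to 11.1 CPM in WT fetal liver (1.93 ± 0.26, limma adjusted p 5.8e-05). Cxcr3, the receptor of CXCL10, was 0.898 to 1.29 against 6.40 to 9.49 CPM in fetal liver, and fell by 2.04 on the log2 scale (SE 0.22, limma adjusted p 6.4e-06). In bone marrow it was 0.243 to 1.08 against 1.39 to 1.87 CPM and fell by 0.71 (SE 0.22, limma adjusted p 0.0358). Ccrl2 (1.43), Ackr1 (2.19) and Cxcr3 (-1.33) had interaction calls, against 9.19% of all genes called in either direction. The number of receptors called was 2 to 4 when single libraries were left out. Cxcl12, the ligand of CXCR4, was not tested: it was 0.714 to 2.17 CPM in ETV6-RUNX1 fetal liver and at most 0.0540 CPM in the other libraries. Ackr3, the scavenger receptor of CXCL12, was at most 1.05 CPM in any library.

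All 25 receptor signalling genes found were tested. In fetal liver 16 rose, 1 fell (Rac2, -0.43 ± 0.13, limma adjusted p 0.0161) and 8 had no call, against 24.8% of all genes called higher and 43.1% in either direction. No gene of the list was called lower without WT fetal liver replicate 3 or ETV6-RUNX1 fetal liver replicate 3. In bone marrow 5 rose and none was called lower, against 14.4% of all genes called higher, a share near that of the list. The list's median log2 fold change was 0.53 in fetal liver and 0.26 in bone marrow. The rises called in both sources were those of the G protein subunits Gnai2 and Gnb2, the receptor kinases Grk2 and Grk3 and Rgs1, which speeds the turn-off of inhibitory G proteins. Rgs1 had the largest change of the list, 17.2 ± 5.69 against 1.46 ± 0.467 CPM in fetal liver (2.86 ± 0.31, limma adjusted p 7.1e-06). In bone marrow it was 72.5 ± 31.9 against 24.0 ± 3.48 CPM (1.47 ± 0.31, limma adjusted p 0.00570). Arrb1, an arrestin that uncouples receptors, rose by 1.36 ± 0.19 in fetal liver (limma adjusted p 6.4e-05), had no call in bone marrow (0.33 ± 0.19, adjusted p 0.238) and was 1 of 3 genes with an interaction call, beside Rgs2 and Rgs18, against 9.19% of all genes. This count came to 8 without WT bone marrow replicate 1 and to 1 without WT bone marrow replicate 3, without WT fetal liver replicate 2 or with all genes with reads. It was 6 with edgeR and with median-of-ratios scaling and 8 with DESeq2.

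**Figure D4:**
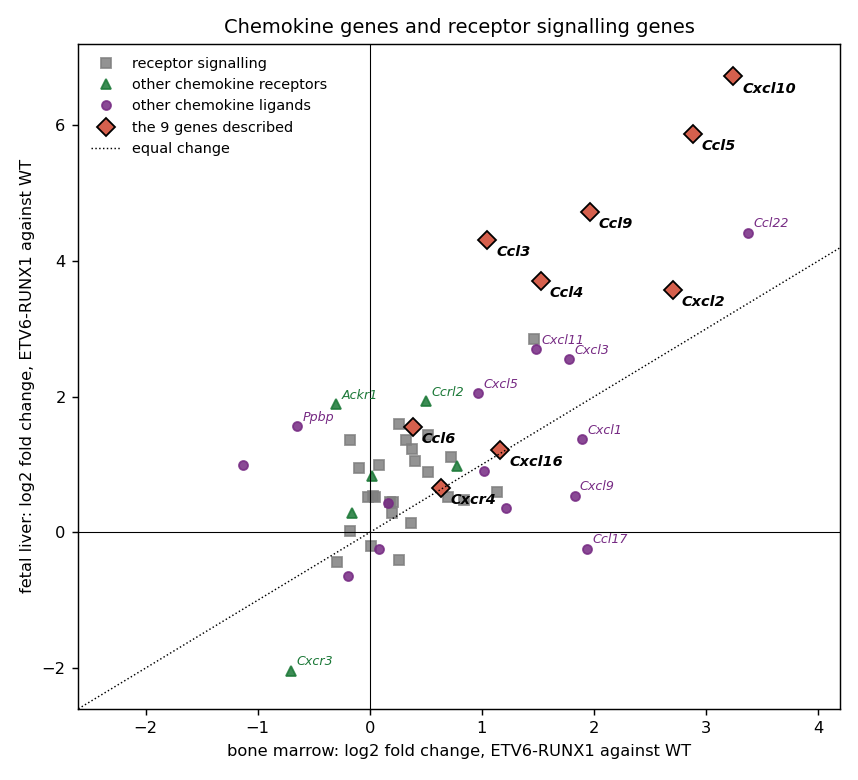
Log2 fold change of CPM + 1 between ETV6-RUNX1 and WT in bone marrow (horizontal) and fetal liver (vertical) for the 9 genes (diamonds), the tested genes of the other ligand and receptor lists (circles and triangles) and the receptor signalling genes (squares), with a dotted line of equal change. All 9 diamonds lie above 0 on both axes, Cxcl16 and Cxcr4 lie close to the line, and Cxcr3 is below 0 on both axes. The place of Cxcl16 depends on the scale.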

How the data were processed

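Gene expression was measured by RNA sequencing of total RNA (Norgen single-cell kit, SMARTer stranded Pico libraries, NovaSeq, per the labels' protocols) in 12 libraries. The submitters' processing notes name bcl2fastq, STAR 2.5.1a, Subread, featureCounts 1.4.6-p5, Salmon 0.8.2, edgeR, limma and GRCm38, with no role or order. The annotation release and the use of strand are not given in the sources used here. The authors deposited CPM per gene. The smallest value above 0 of a library was taken as 1 read, and 100% of values were whole multiples of it (tolerance 0.01 read). Listed values summed to 99.8% or more of a full CPM total in each library, so no further scaling between libraries was seen. From the 40757 entries, 276 duplicates were dropped.

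CPM was transformed as log2(CPM + 1). The 14271 genes that reached 1 CPM in 3 or more of the 12 libraries were tested two-sided with limma 3.58.1 (lmFit and eBayes with a mean-variance trend, R 4.3.3), with 4 group coefficients and no covariate, and p-values were adjusted by Benjamini-Hochberg over all genes tested. Other settings tried were a smaller pseudocount (0.1), all genes with reads, a mean of at least 5 CPM, median-of-ratios and quantile scaling, edgeR 4.0.16 (quasi-likelihood, TMM) and DESeq2 1.42.0 on the recovered reads, the replicate number as a block, only the 6 libraries compared and leaving out each library. Positions and exon lengths came from GENCODE M21 (GRCm38). No replicate pair agreed within sampling noise (chi-square per degree of freedom 34.3 to 194). The genes and the lists of ligands, receptors, signalling genes and markers were chosen with earlier results of these data known. From the receptor list 1 gene is not reported here. Listed genes that passed the filter could be named, and the 3 genes most like each member were named by correlation.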

Additional observations from a re-analysis of the deposited data

Results flagged for a closer look

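The effect of the fusion on 6 genes differed between fetal liver and bone marrow by the limma interaction test (adjusted p under 0.05), against 5.56% of all genes called in that direction and 9.19% in either. Among the 6, Ccl6 was tested only because of its level in ETV6-RUNX1 fetal liver. On the log2(CPM + 1) scale it was larger in fetal liver by 3.26 for Ccl3, 2.18 for Ccl4, 2.995 for Ccl5, 1.17 for Ccl6, 2.76 for Ccl9 and 3.48 for Cxcl10. In each source, no WT library reached the lowest ETV6-RUNX1 library for any of them, so that the sources differed in the size of the change and not in its direction. Monocyte and macrophage marker sums (748 to 946 CPM in ETV6-RUNX1 fetal liver, 252 to 486 CPM elsewhere) and dendritic marker sums (15.1 to 16.9 CPM against 2.32 to 7.23 CPM) moved in the same direction. C1qa, C1qb, C1qc and Marco remained at or below 0.495 CPM. HSC and progenitor sums (4136 to 4257 CPM against 1851 to 3302 CPM) and megakaryocyte sums (1320 to 1670 against 169 to 1269 CPM) were also highest there. Neutrophil lineage sums (37.5 to 55.3 against 103 to 366 CPM) and mast cell and basophil sums (3.34 to 4.29 against 5.29 to 13.6 CPM) were lowest in that group. The part of these cell types in the result was not tested. Mitochondrial reads were also lowest in ETV6-RUNX1 fetal liver, and Ddx3y differed between its genotypes in fetal liver, whose part was not tested either.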

How the results depend on the processing

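Over all alternatives that gave a value, 845 results of single members kept their direction and their side of the threshold, 47 lost and 17 gained a call, and 17 changed sign, all of the last without a call. The fetal liver calls of the 8 ligands were kept in every alternative run. Members called numbered 8 to 9 in fetal liver, 4 to 7 in bone marrow, 4 to 6 in the interaction, 1 to 3 in WT by source and 4 to 5 in ETV6-RUNX1 by source when single libraries were left out. With all genes with reads the members called in bone marrow fell from 7 to 4 and those by source in WT from 2 to 1. The latter were 4 with DESeq2. Counts over all genes in bone marrow were 2763 and came to 1601 with only the 6 libraries compared, and to 1520 to 2924 without single libraries (1520 without ETV6-RUNX1 replicate 2). For the interaction 1311 became 767 with all genes with reads, and 731 to 2332 without single libraries, by source in WT 1591 became 868 to 2781. In both, leaving out WT bone marrow replicate 2 gave the lowest count and leaving out replicate 1 of that group the highest.

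Signs changed only for values near 0. Without single libraries the interaction ran from -0.24 to 0.29 for Cxcl16 and from -0.23 to 0.20 for Cxcr4. By source in WT the value ran from -0.27 to 0.34 for Ccl4, -0.055 to 0.036 for Ccl6 and -0.13 to 0.41 for Ccl9, and by source in ETV6-RUNX1 from -0.63 to 0.04999 for Ccl5. For Ccl6 by source in WT edgeR gave 0.00582. The cause was not tested.

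Scaling moved the split of calls over all genes. The share called higher was 74.5% in bone marrow as deposited and 50.5% with edgeR, and 57.6% in fetal liver against 42.0% with quantile normalization. It was 60.6% against 74.5% with median-of-ratios scaling in the interaction, 30.3% against 41.5% with quantile normalization by source in WT, and 36.3% against 58.7% with median-of-ratios scaling by source in ETV6-RUNX1. The median over all genes moved from 0.13 to 0 in bone marrow (edgeR), from 0.08 to -0.10 in fetal liver (quantile) and from -0.16 to -0.02 by source in ETV6-RUNX1 (edgeR). The genotype changes of all 9 members kept their direction in every alternative. Deviations of same-numbered libraries correlated at 0.16, -0.08 and 0.22 in fetal liver and at -0.31, 0.12 and -0.40 in bone marrow. With 3 libraries per group these values cannot decide whether the numbers are a pairing, which the labels do not state. Not every library correlated best with its own number. The replicate block ended the calls of Cxcr4 in fetal liver (limma adjusted p 0.0521), Ccl3 in bone marrow (0.0545), Cxcl10 in the interaction (0.0673) and Cxcl2 by source in WT (0.0512), where it left 1 member called, and no other call of a member. A mean of at least 5 CPM left no value for Ccl6 and Cxcl16, and the interaction, which needs all groups, was not fitted with 6 libraries. Depth limits Ccl6 in WT (9 and 10 reads) and Cxcl2 in WT fetal liver (8 reads).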

Other observations

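Pf4 and Ppbp, which are not among the 9 genes, encode CXC chemokines stored in platelet granules. Pf4 was 4623 to 4995 CPM in ETV6-RUNX1 and 2037 to 3149 CPM in WT fetal liver, without overlap and without a call (0.99 ± 0.52, limma adjusted p 0.143). In bone marrow it was 149 to 1217 against 567 to 891 CPM (-1.13 ± 0.52, limma adjusted p 0.141), and the ETV6-RUNX1 libraries spread over the WT range. Ppbp was 523 to 640.5 against 113 to 260.3 CPM in fetal liver (1.57 ± 0.96, limma adjusted p 0.203) and 3.71 to 184 against 11.7 to 68.7 CPM in bone marrow (-0.65 ± 0.96, adjusted p 0.667). Of 4 megakaryocyte markers 3 rose in fetal liver, against 24.8% of all genes called higher. Among them was Itga2b, which made up most of their sum (a mean of 1178 against 579 CPM). Gp9 fell from 387 to 213 CPM (-0.84, limma adjusted p 0.00911). Their part in these values was not tested.

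Several receptors stayed below the filter. Ccr1, a receptor of CCL3, CCL5, CCL6 and CCL9, was 0.377 to 2.73 CPM in ETV6-RUNX1 fetal liver and at most 0.367 CPM in the other libraries. Cxcr6, the receptor of CXCL16, was at most 0.558 CPM in any library. Cxcr2, the receptor of CXCL2, passed the filter at group means of 0.591 to 1.77 CPM and had no genotype call in either source (limma adjusted p 0.379 in fetal liver and 0.703 in bone marrow).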
